A study of Mus musculus with 2 samples.

Results

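The genes of the TGF-β, BMP and activin pathway were examined in RNA of colonies and organoids. These were grown from mammary basal cells without or with M2-like macrophages. The set held 49 genes, taken by name from the 49492 genes of the count table: secreted ligands, their receptors, extracellular antagonists and latent ligand carriers, the Smad proteins and a few target genes. The basal cells were primary cells of wild-type adult female mice, sorted by surface markers and grown in a 3D matrix for 11 to 14 days. The ctrl group had no treatment, and the M2 group shared its wells with bone marrow-derived macrophages polarised with IL-4 and IL-13, held in an insert behind a porous membrane and therefore apart from the basal cells. Each group was 1 library, so no difference below has a replicate check. The strain of the basal cells, the number of mice behind each library and whether ctrl wells held an empty insert are not given in the sources used here.

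The ctrl library held 26912610 reads in genes and the M2 library 29413844, and the pathway genes took 0.367% of the reads in ctrl and 0.332% in M2. Basal markers chosen for this work (14 genes, among them Krt5, Krt14 and Trp63) all had more than 3 reads in both libraries. They summed to 8768 CPM (reads scaled by library size) in ctrl and 9152 in M2. Of the 14, 2 were higher in M2, Krt17 (6051 and 16592 reads) and Procr (68 and 204). Another 2 were lower, Oxtr (8324 and 1920 reads) and Lgr5 (3322 and 602). Luminal markers (16 genes) were also expressed, at 7678 and 6393 CPM, and 7 of them were lower and 2 higher in M2. By the call defined below, 8.16% of all genes tested were higher and 6.55% lower. The paper's flow cytometry of such cultures found mostly luminal cells in both groups and a larger basal share in M2. Of 16 macrophage markers, 13 had 3 reads or fewer in ctrl and 10 in M2, and Adgre1, Ptprc, Tyrobp, Fcer1g, C1qb and C1qc had 0 reads in both libraries. The list summed to 10.3 and 12.1 CPM, and 2 of the 5 tested, Aif1 and Cd163, were called higher (3 to 40 reads and 2 to 30). Of 13 fibroblast markers with enough reads, 6 were lower and 2 higher in M2, with summed levels of 3916 and 2757 CPM. Postn, which was not called, held 72824 of the 107577 reads of this list in ctrl and 71795 of 79465 in M2. The sum therefore shows little of the lower genes, such as Col14a1 (13318 and 1603 reads) and Col6a3 (9433 and 523). Of 5 endothelial and 4 adipocyte markers 2 each were lower and 1 each higher, at no more than 16.4 CPM in sum. Several of these marker genes are also expressed by epithelium, and their part in the values of the pathway genes was not tested. In bulk RNA, fewer cells of a type and less RNA per cell cannot be told apart.

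Ligands of this family are made as precursors. TGF-β stays latent, bound through its propeptide to a latent TGF-β binding protein (LTBP), until integrins or proteases release it. Active dimers bring together type I and type II receptor kinases, which phosphorylate Smad2 and Smad3 for TGF-β and activin, or Smad1, Smad5 and Smad9 for BMPs. These then bind Smad4 and act on target genes. Smad6, Smad7 and the Ski family damp the signal inside the cell, and follistatin, noggin, chordin and gremlin bind ligands outside it. In the mammary gland TGF-β is known for restraining ductal growth.

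Promoters of 5 genes that differed between the libraries are shown, 1 each for a ligand, a receptor, an antagonist, a latent ligand carrier and a Smad, so that the DNA next to the changed genes can be read beside their values. Each is the 250 bases before the RefSeq start on GRCm38.p6, written 5′ to 3′ along the gene's strand. The RefSeq starts of Ltbp1 and Grem1 lie slightly upstream of those in the count table. Capitals mark a match to 1 of the 5 motifs searched.
Inhba, chr13:16011601-16011850, plus strand: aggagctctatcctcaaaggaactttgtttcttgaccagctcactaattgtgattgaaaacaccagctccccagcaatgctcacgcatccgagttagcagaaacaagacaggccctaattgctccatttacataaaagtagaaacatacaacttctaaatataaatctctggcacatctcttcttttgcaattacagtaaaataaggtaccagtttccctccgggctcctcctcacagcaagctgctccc
Acvr2a, chr2:48813859-48814108, plus strand: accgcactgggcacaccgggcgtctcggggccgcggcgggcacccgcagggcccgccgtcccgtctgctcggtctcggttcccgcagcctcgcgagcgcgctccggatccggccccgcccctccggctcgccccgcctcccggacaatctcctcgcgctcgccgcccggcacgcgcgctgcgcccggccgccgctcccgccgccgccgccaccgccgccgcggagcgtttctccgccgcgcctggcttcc
Grem1, chr2:113758649-113758898, minus strand: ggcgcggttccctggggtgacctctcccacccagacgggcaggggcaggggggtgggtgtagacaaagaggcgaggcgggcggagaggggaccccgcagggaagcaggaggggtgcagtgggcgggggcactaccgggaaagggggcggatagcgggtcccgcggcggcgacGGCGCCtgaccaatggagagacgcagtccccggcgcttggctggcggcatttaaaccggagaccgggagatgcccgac
Ltbp1, chr17:75005279-75005528, plus strand: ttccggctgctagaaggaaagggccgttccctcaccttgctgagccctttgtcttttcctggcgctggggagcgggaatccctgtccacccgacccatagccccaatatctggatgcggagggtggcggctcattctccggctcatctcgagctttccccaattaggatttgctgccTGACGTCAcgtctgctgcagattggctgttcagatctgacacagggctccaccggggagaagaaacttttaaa
Smad9, chr3:54755332-54755581, plus strand: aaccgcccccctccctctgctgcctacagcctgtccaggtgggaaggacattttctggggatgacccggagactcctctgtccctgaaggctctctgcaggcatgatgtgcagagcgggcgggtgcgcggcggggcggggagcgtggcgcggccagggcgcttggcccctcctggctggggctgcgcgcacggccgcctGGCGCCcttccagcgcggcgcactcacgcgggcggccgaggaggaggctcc

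The motifs were searched on both strands in the 36 of the 49 genes with an entry, 10 of the 12 called genes among them, and in all 32851 promoters of the table. The GC-rich Smad box GGCGCC was found in 9 of the 36 (25%) and in 9.59% of all promoters. Its letters are all G or C, and the GC content of these sets was not matched. It lies 78 bases before the start in Grem1 and 51 bases before it in Smad9, and the other genes with it were Bmpr1a, Bmpr2, Chrd, Id2, Ltbp4, Smad5 and Tgfbr1. Of these 9 genes, Grem1, Chrd and Smad9 were called and 6 were not. The cAMP response element TGACGTCA was in Ltbp1, 73 bases before the start, and in Fstl4, both lower in M2, and in 1.55% of all promoters. In Fstl4 the RefSeq start lies 72 bases inside the gene as counted, and the element spans the start of the counted gene. The palindromic Smad box GTCTAGAC, and the AP-1 element TGACTCA were in 0 of the 36, against 0.167% and 4.46% of all promoters, and an NF-κB element was likewise in 0 of the 36, against 0.140%. Inhba and Acvr2a held none of these letters in this window. These matches describe letters and were not measured as binding.

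To compare the groups, each gene's reads were scaled by library size, and a call needed both an exact binomial test of ctrl against M2 reads with an adjusted p under 0.05 and a difference of 2-fold or more. This test compares those libraries and not the conditions. Of the 49 genes, 44 had at least 10 reads over both libraries. In M2, 6 of the 44 were called higher (13.6%, against 8.16% of all 19233 genes tested) and 6 lower (13.6%, against 6.55%), or 27.3% in either direction against 14.7%. The higher genes were Inhba, Inha, Bmp2, Grem1, Smad6 and Smad7, and the lower ones Acvr2a, Ltbp1, Smad9, Id3, Chrd and Fstl4. Among the 30 members with at least 500 reads in a library, a limit chosen after seeing the data, 16.7% were called against 9.04% of all such genes. If cultures were assumed to vary with a biological coefficient of variation of 0.2 (edgeR's exactTest), 4 were called higher and 5 lower, without Smad6, Smad7 and Chrd, and at 0.4 Fstl4 alone was called. The median log2 difference of the 44 was -0.07, beside -0.0032 over all genes tested, with 16 members above 0 and 28 below. The plot of log2 differences by role shows that the called genes were spread over most roles, while the Smads that carry the signal, other than Smad9, lay near 0.

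**Figure D1:**
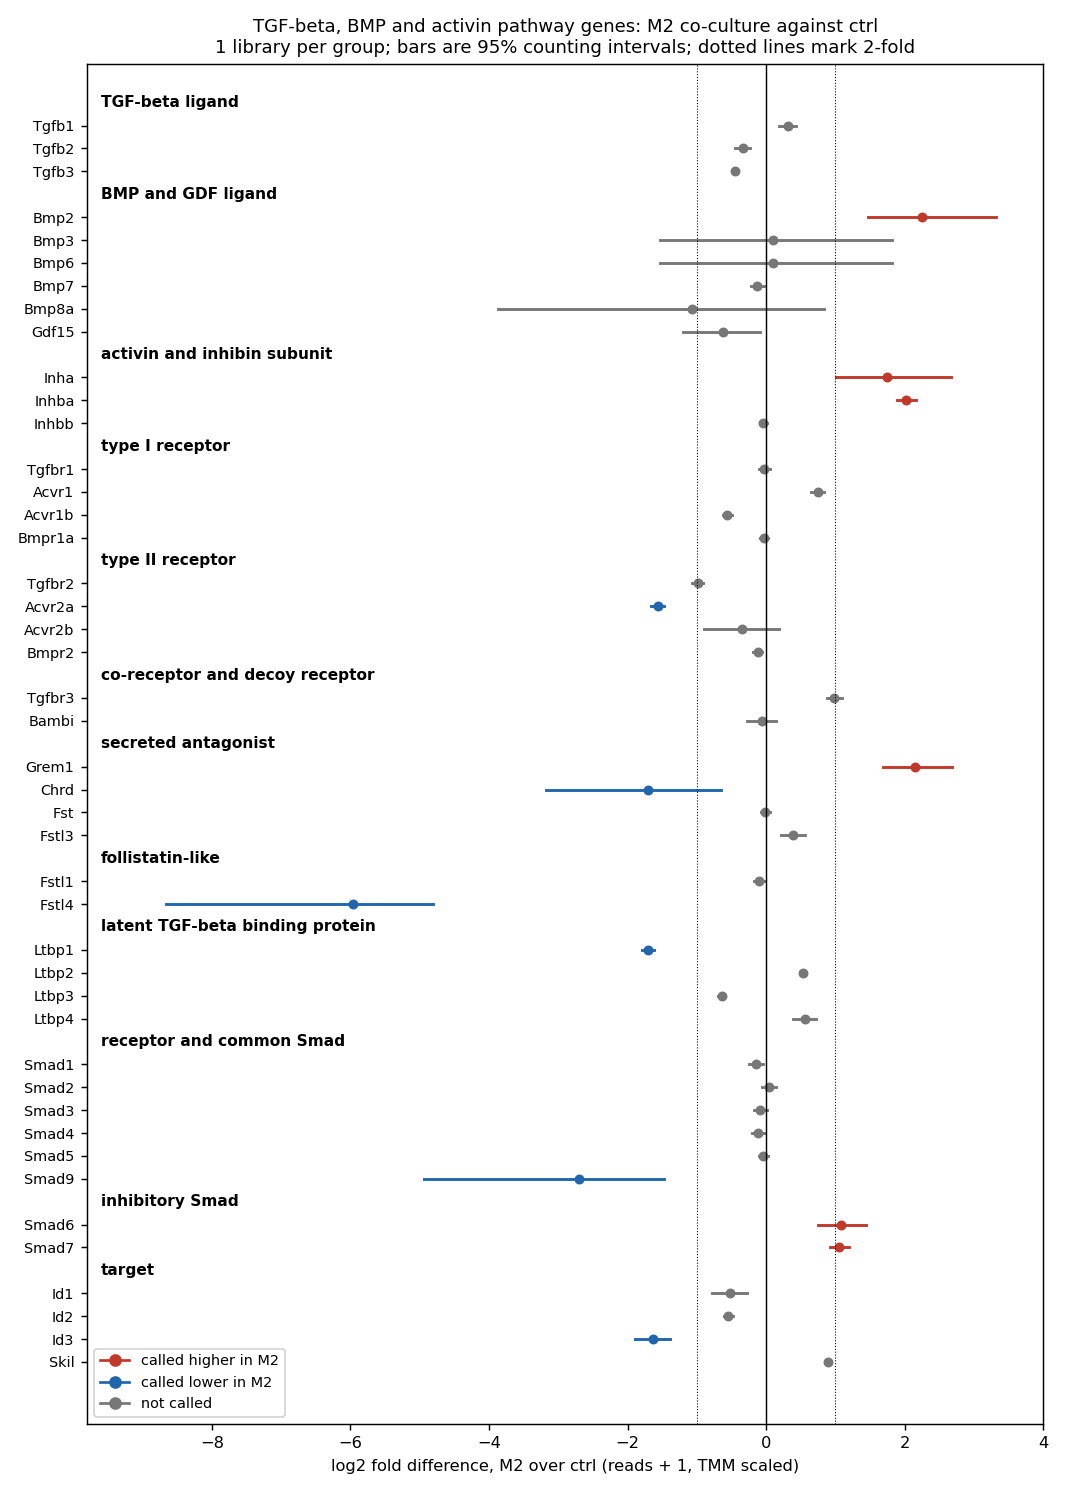
Log2 difference (M2 over ctrl, reads plus 1, scaled by library size) of the 44 pathway genes tested, grouped by role. Points are genes, bars are 95% counting intervals and dotted lines mark 2-fold; 6 genes were called higher and 6 lower, from 2.25 for Bmp2 to -5.96 for Fstl4.

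The activin and inhibin subunits held the largest increase among members with at least 500 reads in a library. Inhba, which encodes the subunit of activin A, had 507 reads in ctrl and 2165 in M2. Its level per length went from 9.32 to 37.9 reads per kilobase of gene length, scaled by library size (RPKM), a log2 difference of 2.02 (95% counting interval 1.88 to 2.17) or 4.06-fold. Inhba lies at chr13:16011851-16027211 on the plus strand (GRCm38, as all coordinates here). Inhbb, the subunit of activin B, did not move with it: 6442 reads and 6574 reads, 55.1 and 53.6 RPKM, log2 -0.04 (-0.09 to 0.0098). Inha, whose product pairs with either subunit to form inhibin, was called higher at a low level, with 17 reads in ctrl and 62 in M2 (log2 1.74, 1.0 to 2.67). Inhbb therefore made up 85.0% of the summed subunit level in ctrl and 57.6% in M2, and Inhba 14.4% and 40.8%.

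The TGF-β genes themselves were not called. Tgfb3 was the most abundant ligand of the set, with 9855 reads in ctrl and 7566 in M2, or 106 and 77.6 RPKM (log2 -0.45, -0.49 to -0.41), and held 86.3% and 82.4% of the TGF-β ligand level. Tgfb2 had 1504 and 1246 reads (log2 -0.34, -0.45 to -0.23). Tgfb1 differed the other way, with 1013 and 1318 reads (log2 0.31, 0.19 to 0.43). For all of these the counting interval excluded 0 and the difference stayed under 2-fold. Within a library, which needs no scaling, the per-length ratio of Tgfb3 to Tgfb1 was 14.5 in ctrl and 8.55 in M2.

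Among BMP and GDF ligands, Bmp7 carried almost all of the level, 97.4% of the BMP total in ctrl and 94.4% in M2, and barely differed (1794 and 1725 reads, 16.3 and 14.9 RPKM, log2 -0.13, -0.22 to -0.03). Bmp2, a ligand best known from bone formation, was called higher from 13 reads to 69 (log2 2.25, 1.47 to 3.32) and stayed under 1 RPKM in both libraries, at chr2:133552159-133562885 on the plus strand. Gdf15, a stress-induced ligand, had 71 and 48 reads and was not called (log2 -0.62, -1.19 to -0.09). Bmp3 and Bmp6 each had 7 and 8 reads, and Bmp8a had 7 and 3, where its paralog Bmp8b may share reads. Bmp4 (1 and 0), Bmp5 (5 and 1) and Gdf10 (4 and 0) had too few reads to test, and a count of 0 allows up to 3 reads.

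**Figure D2:**
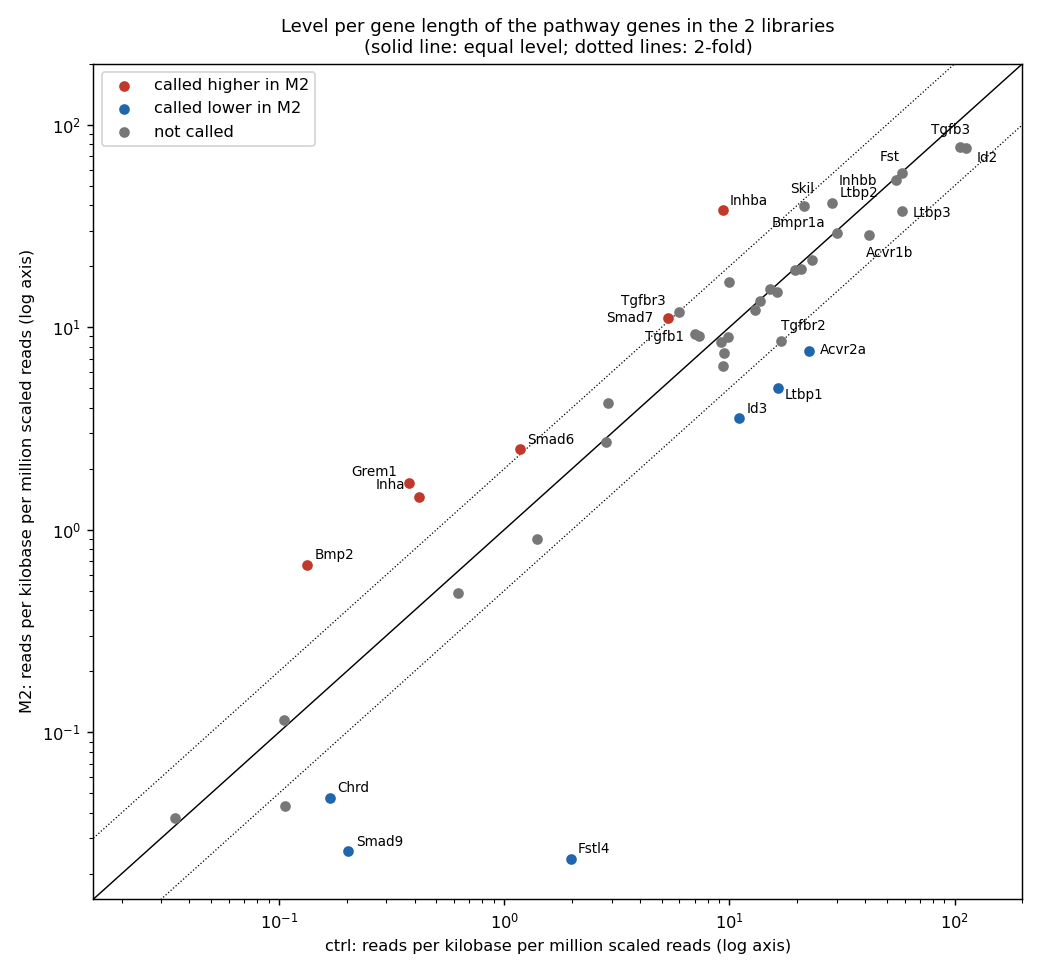
Level per gene length of the pathway genes, ctrl on the x axis against M2 on the y axis, in RPKM on log axes; the solid line marks equal levels and the dotted lines 2-fold. Id2 and Tgfb3 lie at the top near or above 76.8 in both libraries, Inhba stands above the upper dotted line, and Acvr2a, Ltbp1 and Id3 lie below the lower one.

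The type II receptors of the set, which activate the type I kinases, were lower in sum. Acvr2a, a receptor for activins and some BMPs at chr2:48814109-48903269 on the plus strand, had 3537 reads in ctrl and 1253 in M2. Its level went from 22.6 to 7.65 RPKM (log2 -1.57, -1.66 to -1.47), the largest difference among the type I and type II receptors of the 49 genes. Of its length, 7.84% lies opposite Orc4, which had 1363 and 1216 reads. Tgfbr2, the ligand-binding receptor of TGF-β, lay just under the limit with 3825 and 2024 reads, or 17.0 and 8.58 RPKM (log2 -0.99, -1.07 to -0.91). It was called lower when libraries were scaled by total reads (log2 -1.05). Bmpr2, the BMP receptor, had 4541 and 4371 reads (log2 -0.12, -0.18 to -0.06), and Acvr2b had 67 and 55. The summed type II level was 49.5 RPKM in ctrl and 25.1 in M2, and Bmpr2 held 18.6% of it in ctrl and 33.5% in M2.

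The type I receptors of the set, kinases that phosphorylate Smads, were uncalled, and they did not differ in the same direction. Bmpr1a (5227 and 5365 reads, log2 -0.03, -0.09 to 0.02) and Tgfbr1 (2461 and 2535 reads, log2 -0.03, -0.11 to 0.05) had intervals that included 0. Acvr1b, the activin receptor, was the highest of them in ctrl, with 5074 and 3610 reads or 41.9 and 28.4 RPKM (log2 -0.56, -0.62 to -0.50). Acvr1, a BMP and activin receptor, had 1321 and 2319 reads (log2 0.74, 0.64 to 0.84). Bmpr1b had 3 and 2 reads. In sum type I receptors were at 95.5 and 87.8 RPKM, and the per-length ratio of Tgfbr2 to Tgfbr1 went from 1.24 to 0.637 (log2 change -0.96, -1.07 to -0.85). Of the receptors without a kinase, the co-receptor Tgfbr3 (betaglycan) had 1074 and 2230 reads (log2 0.98, 0.88 to 1.09), just under 2-fold, and was called higher with median-of-ratios scaling (log2 1.01). The decoy receptor Bambi had 393 and 394 reads (log2 -0.07, -0.27 to 0.14).

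**Figure D3:**
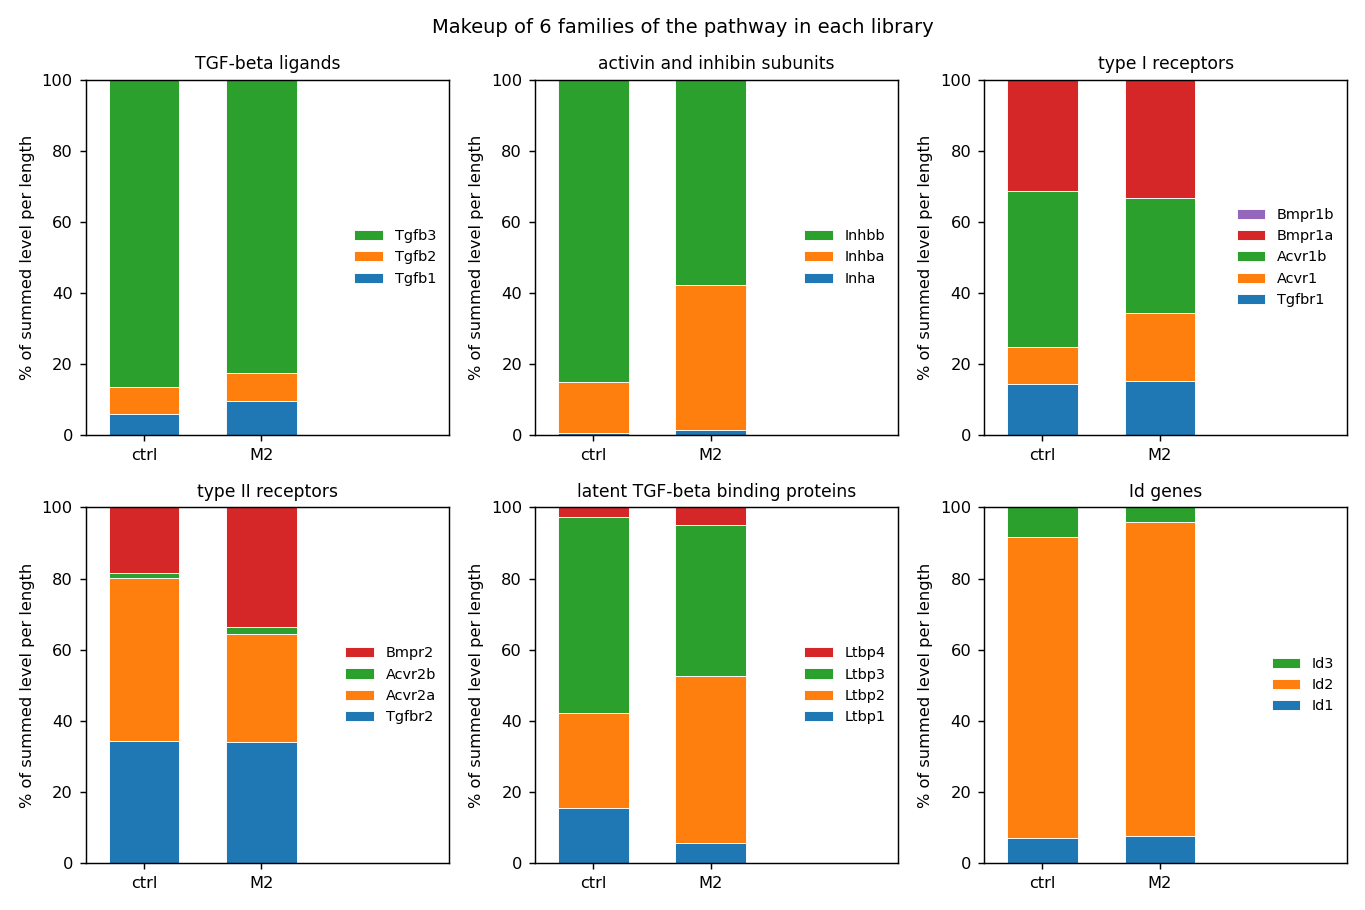
Share of each family's summed level per length held by its genes, as bars in percent for ctrl and M2. Inhba went from 14.4% to 40.8% of the activin and inhibin subunits, Acvr2a from 45.8% to 30.4% of type II receptors and Ltbp1 from 15.4% to 5.70% of the LTBPs.

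The secreted antagonists did not differ in 1 direction. Fst, or follistatin, which captures activin, was the highest of them at 58.1 and 57.5 RPKM (3731 and 3873 reads, log2 -0.02, -0.08 to 0.05), and its sign turned with median-of-ratios scaling (log2 0.0073). Inhba and Fst thus separated: their per-length ratio was 0.160 in ctrl and 0.660 in M2 (log2 change 2.04, 1.89 to 2.20). Grem1, or gremlin, an antagonist of BMPs, was called higher from 43 reads to 203 (log2 2.14, 1.69 to 2.68), at 0.377 and 1.70 RPKM, chr2:113746164-113758646 on the minus strand. Chrd, or chordin, was called lower from 27 reads to 8 (log2 -1.71, -3.17 to -0.65). Nog, or noggin, had 2 and 3 reads. Fstl3 had 474 and 652 reads (log2 0.39, 0.22 to 0.56), and 47.3% of its length lies opposite Prss57, so that without known strand these reads are uncertain. Of the follistatin-like genes, Fstl1 had 2817 and 2760 reads (log2 -0.10, -0.18 to -0.02), while Fstl4 went from 237 reads to 3 (log2 -5.96, -8.66 to -4.81), the largest difference of the set, at chr11:52764634-53188538 on the plus strand.

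The LTBPs, which hold latent TGF-β in the matrix, were unequal. Ltbp1 at chr17:75005568-75392512 on the plus strand was called lower, with 4709 reads in ctrl and 1511 in M2, or 16.4 and 5.0 RPKM (log2 -1.71, -1.79 to -1.63). Ltbp2, a member that does not bind latent TGF-β in the usual way, had 6411 and 9705 reads (log2 0.53, 0.48 to 0.57), with 9.34% of its length opposite an uncharacterised transcript. Ltbp3, the highest in ctrl at 58.3 RPKM against 37.4 in M2, had 8316 and 5598 reads (log2 -0.64, -0.69 to -0.59). Ltbp4 had 513 and 791 reads (log2 0.55, 0.39 to 0.72). Ltbp2 made up 26.9% of the LTBP level in ctrl and 46.9% in M2, and the ratio of Ltbp1 to Tgfb1 per length went from 2.24 to 0.552 (log2 change -2.02, -2.17 to -1.87).

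The signal-carrying Smads were nearly level and the inhibitory Smads were higher. Of the TGF-β and activin Smads, Smad2 had 1472 and 1584 reads (log2 0.04, -0.07 to 0.14) and Smad3 had 1970 and 1951 (log2 -0.08, -0.17 to 0.0079). Of the BMP Smads, Smad1 had 1697 and 1614 reads (log2 -0.14, -0.24 to -0.04) and Smad5 had 4004 and 4080 (log2 -0.04, -0.11 to 0.02). All 4 differed by at most 1.10-fold. The sign of Smad2 turned with total-read scaling (log2 -0.022). Smad4, the common partner, had 2371 and 2288 reads (log2 -0.12, -0.20 to -0.04) and was the highest Smad at 23.3 and 21.4 RPKM. Smad9, the third BMP Smad, was scarce and called lower from 30 reads to 4 (log2 -2.70, -4.94 to -1.47), and held 0.685% of the BMP Smad level in ctrl and 0.0922% in M2. It lies at chr3:54755582-54801257 on the plus strand.

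Smad6, the inhibitor of BMP signalling, had 103 reads in ctrl and 230 in M2 (log2 1.08, 0.75 to 1.44). Smad7, which blocks TGF-β and BMP receptors, had 661 and 1445 reads, or 5.32 and 11.1 RPKM (log2 1.06, 0.93 to 1.19), at chr18:75367529-75395935 on the plus strand. Both lay close to the 2-fold limit, and Smad7 was not called with total-read scaling (log2 0.999). Ratios within a library do not need that scaling: Smad7 to Smad3 was 0.411 in ctrl and 0.908 in M2 (log2 change 1.14, 0.98 to 1.31), and Smad6 to Smad1 changed by 1.23 (0.87 to 1.59).

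Among the target genes of the set, Id1, Id2 and Id3 had negative differences and Skil a positive one. Id2, an inhibitor of basic helix-loop-helix factors and the highest gene of the set in ctrl at 112 RPKM, had 3909 and 2811 reads (log2 -0.54, -0.62 to -0.47). Id1 had 297 and 216 reads (log2 -0.53, -0.79 to -0.27). Id3 at chr4:136143497-136145755 on the plus strand was the only one called, from 543 reads to 183, or 11.0 to 3.55 RPKM (log2 -1.63, -1.89 to -1.39). The summed level of Id1, Id2 and Id3 was 132 and 86.8 RPKM, and the ratio of Id3 to Id2 changed by -1.09 (-1.35 to -0.84). Skil, which encodes the Smad co-repressor SnoN, had 5729 and 11135 reads, or 21.5 and 39.9 RPKM (log2 0.89, 0.84 to 0.94), and was not called. Id4, which is not in the set and was named after its values were seen, differed the other way from the other Id genes, with 2127 and 2807 reads or 46.6 and 58.7 RPKM (log2 0.33, 0.25 to 0.41).

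**Figure D4:**
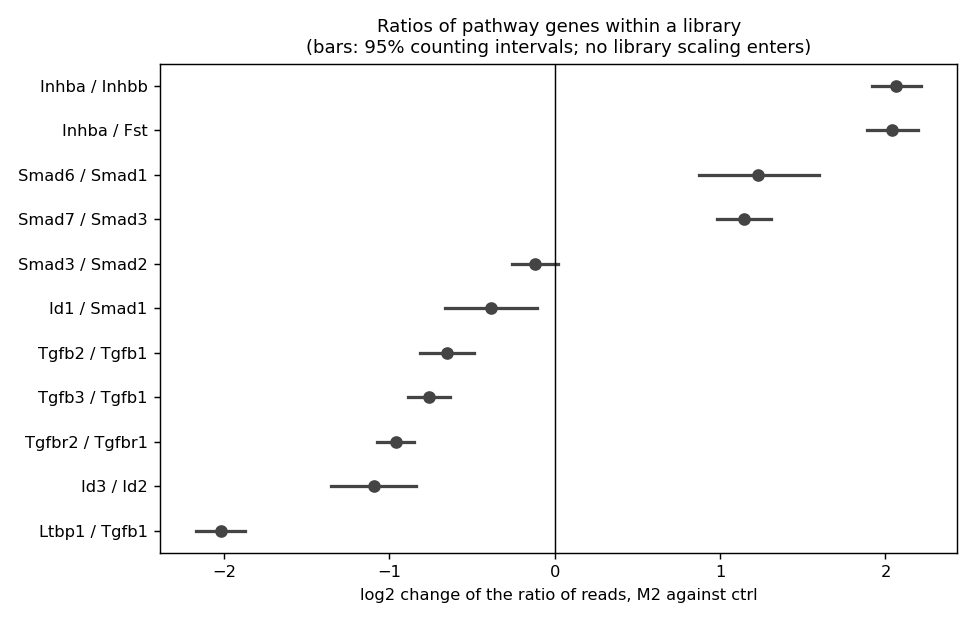
Log2 change (M2 against ctrl) of the ratio of reads of 2 members within a library; points are ratios and bars 95% counting intervals. Inhba gained on Inhbb and on Fst (2.07 and 2.04), the Ltbp1 to Tgfb1 ratio changed the other way (-2.02), and the Smad3 to Smad2 ratio had an interval that included 0 (-0.26 to 0.02).

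Further genes of the pathway came from lists made for this work. Their counts are to be read beside the shares over all genes tested, 8.16% called higher and 6.55% lower. None of the 6 further ligands tested of 18 (such as the GDFs) was called. Of 8 further receptors and co-receptors tested, Lrrc32, or GARP, which tethers latent TGF-β at the cell surface, was called higher from 128 reads to 1188 (log2 3.14, 2.88 to 3.42), and Acvr1c was lower (13 reads to 2). Of 13 further secreted antagonists tested, 4 were called higher and 1 lower. Dcn, or decorin, which binds TGF-β, went from 51 to 157 reads (log2 1.53). Chrdl2 went from 22 to 73 (log2 1.62) and Kcp from 1 to 17. Vwc2, a BMP-binding secreted protein, went the other way, from 195 reads to 4 (log2 -5.36, -7.57 to -4.30).

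A list made for activators of latent TGF-β also took in Fbn1, Fbn2, Furin, Bmp1 and Tll1, so it does not hold activators alone. Of its 12 genes tested, 2 were called higher and 0 lower, beside 8.16% and 6.55% of all genes tested. The median of the 12 was 0.39. The summed level of the list was 4319 CPM in ctrl and 4196 in M2. Thbs1, or thrombospondin, its most abundant gene, had 70663 and 45811 reads (log2 -0.69, -0.71 to -0.68) and was not called; it was named with its values known. Plau, the urokinase protease, had 2336 and 6147 reads (log2 1.33, 1.26 to 1.40), and Itgb6, a subunit of the integrin that releases latent TGF-β, had 147 and 445 (log2 1.52, 1.26 to 1.81). The 20 further intracellular regulators, among them Smad ubiquitin ligases and co-repressors, were all tested and lay from -0.34 to 0.50. None was called, beside 14.7% of all genes tested in either direction.

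Of 25 TGF-β response genes tested, 5 were called higher and 0 lower, with a median of 0.30. Over all genes tested, 8.16% were called higher and 6.55% lower, the shares to set beside both response lists. Mmp9 had 330 and 1104 reads (log2 1.67), Tgfbi 28 and 288 (log2 3.25, 2.73 to 3.91), Zeb2 83 and 185 (log2 1.08) and Snai1 27 and 89 (log2 1.62). Several more abundant genes of this list, named after their values were seen, were not called and differed in both directions. Fn1 had 31707 and 59215 reads (log2 0.83) and Tpm1 31037 and 46663 (log2 0.52). Timp3 had 27205 and 19787 reads (log2 -0.53) and Col4a1 16628 and 9647 (log2 -0.85). Tagln and Acta2 were nearly level (log2 -0.05 and 0.04). With total-read scaling 4 of the 25 were called higher and 1, the collagen gene Col1a1, lower. Many of these genes also respond to other signals. Of 15 BMP response genes tested, 4 were called higher and 2 lower, but 4 of these 15 are pathway members. Among the 11 others, Sgk1 was called higher (3199 and 7778 reads, log2 1.21), and Dlx5 (399 and 93, log2 -2.16) and Msx1 (33 and 13, log2 -1.35), homeobox genes known as BMP targets, were lower, with a median of -0.59. The plot of the lists shows the members and these lists beside the cell type markers.

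**Figure D5:**
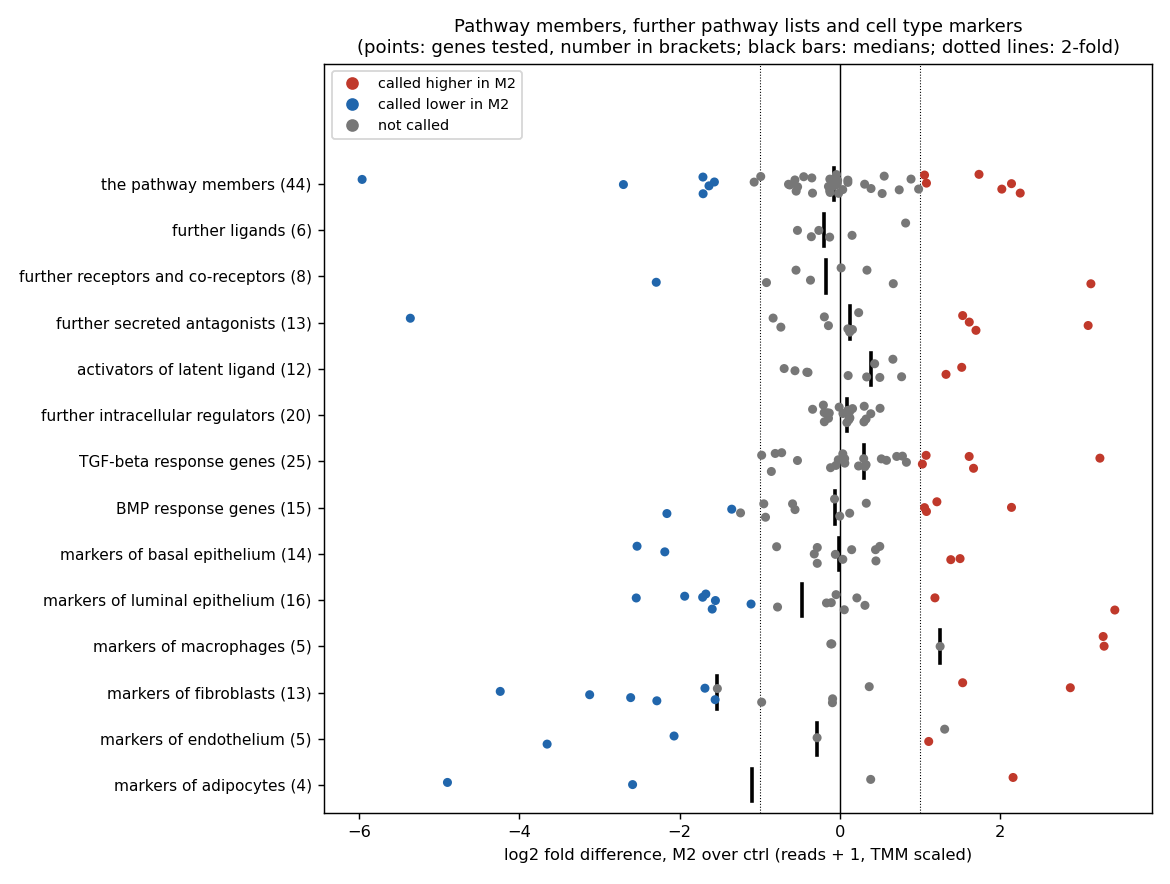
Log2 difference (M2 over ctrl, x axis) of the genes tested in each pathway list and in each list of cell type markers; points are genes, black bars medians and dotted lines 2-fold. The further intracellular regulators stay within the dotted lines. Of the 25 TGF-β response genes 5 are called, all on the higher side, and 20 are not called. Over all genes tested 8.16% were called higher and 6.55% lower. Fibroblast markers have the lowest median (-1.53), which is the value of Lum, with 10 and 3 reads.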

How the data were processed

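RNA of colonies and organoids grown from mammary basal cells was profiled by sequencing in 1 ctrl and 1 M2 library, grouped from the sample labels. The values deposited by the authors are raw read counts, not normalized. The submitters' processing notes name GRCm38 and mm10; the aligner, counter and strand setting are not given in the sources used here. The series text names a microarray, but the values are sequencing counts. Libraries held 26912610 (ctrl) and 29413844 (M2) reads; intervals cover counting error only.

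The members and lists were chosen with earlier results of these data known. Genes with at least 10 reads in sum (19233) were tested. Scaling used TMM factors from edgeR 4.0.16 in R 4.3.3 (1.02 and 0.980). Log2 differences used reads plus 1. Two-sided exact binomial tests (SciPy 1.17.1) were adjusted by Benjamini-Hochberg over all genes tested, with calls at adjusted p under 0.05 and at least 2-fold. Intervals of differences are 95% Clopper-Pearson intervals, and those of pair ratios come from the exact conditional odds ratio. RPKM values were computed from the counts and the table's gene lengths. With 1 library per group no dispersion could be estimated, so quasi-likelihood tests and the DESeq2 Wald test were not run. The scripts were tested on simulated data drawn with counting error only, which cannot show how calls behave under variation between cultures. Alternatives changed the scaling (total reads, DESeq2 1.42.0 size factors, upper quartile), pseudocount, filter, fold and test. Values were given for members that were called, had at least 1000 reads in a library or led their role; others by reads. Of each further list up to 5 called genes with the most reads were named. Ccn1 was not analysed here, and single values of some called list genes are not reported here.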

Additional observations from a re-analysis of the deposited data

How the results depend on the processing

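No paired analysis was possible because there was 1 library in each group, and no library could be left out. Over 12 alternatives, 488 values of members kept direction and call, 22 lost the call, 8 gained it and 2 changed sign, Smad2 (-0.022, total reads) and Fst (0.0073, median-of-ratios). Members called higher and lower numbered 5 and 7 with total reads, 7 and 6 with median-of-ratios, 9 and 9 at 1.5-fold, 3 and 2 at 4-fold, 4 and 3 with at least 1 CPM in both libraries, and 2 and 3 among members with at least 500 reads, chosen after seeing the data. In edgeR's exactTest with an assumed biological coefficient of variation they numbered 6 and 6 at 0.1, 4 and 5 at 0.2, where Smad6, Smad7 and Chrd were lost, and 0 and 1 at 0.4, where only Fstl4 was called. All genes called higher and all genes called lower numbered 797 and 583 with at least 1 CPM, 2462 and 2143 at 1.5-fold, 616 and 494 at 4-fold, 964 and 691 at 0.2, and 175 and 130 at 0.4. Medians that changed sign were those of further receptors (0.18) and endothelium (0.031) with at least 1 read, and of further antagonists (-0.021), macrophages (-0.11), endothelium (1.11) and adipocytes (0.39) with at least 1 CPM; those filters change which genes are tested. The true spread between cultures is unknown, so every call is uncertain. Calls near 2-fold depend on the scaling and threshold, and those on few reads (Bmp2, Inha, Chrd, Smad9) carry more counting error. Many reads did not protect a call: at 0.4 Inhba, Acvr2a, Ltbp1 and Id3, each with at least 500 reads in a library, lost theirs too.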
